A study of Citrus sinensis and Citrus x aurantiifolia and Citrus x latifolia with 53 samples.

Results

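The genes described here are the abundant transcripts of irrigated citrus roots that stood at least 4 times above their level in leaves of the same kind of tree. They are 96 of the 24533 gene identifiers in the files. A gene was taken where its mean over the 12 irrigated root libraries was at least 400 CPM (a gene's count divided by the library's total count, times 1000000) and at least 4 times its mean over the 11 irrigated leaf libraries. A limit of 150 genes was not reached. These irrigated levels chose the genes, so they are given as a description, and a contrast that draws on the irrigated libraries is tied to the choice. Of the 24533 genes, 274 reached 400 CPM in irrigated roots, and the 178 of them that did not reach 4 times the leaf mean serve below as the abundant genes that were not root-biased.

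RNA was sequenced in bulk from grafted trees, to ask whether the ploidy of the rootstock or of the scion alters how a lime tree responds to lack of water. The scion, the grafted shoot, was the triploid Persian lime (Citrus latifolia, PL) or the diploid Mexican lime (Citrus aurantiifolia, ML). The rootstock, which forms the root system, was tetraploid (4x) or diploid (2x) Swingle citrumelo, whose parents the labels give as Citrus sinensis and Poncirus trifoliata. The 4 combinations are named by scion and then rootstock: PL4x, PL2x, ML4x and ML2x. Every root library therefore carries the citrumelo genotype and every leaf library that of a lime. A difference between tissues cannot be told apart from one between these genotypes. The labels call the tetraploid homologous to the diploid and do not say how many lines or clones of it were used. All trees had 2 years in 40 L pots. Water-deficit trees (WD) then had no irrigation for 9 days, while control trees (Ctrl) stayed irrigated. Each of the 4 combinations had 4 WD and 3 Ctrl libraries in each tissue, except PL2x, with 3 WD and 3 Ctrl root libraries and 3 WD and 2 Ctrl leaf libraries. That gave 15 WD and 12 Ctrl root libraries and 15 WD and 11 Ctrl leaf libraries, each from a separate tree within its group. The design names 28 trees for these 53 libraries, so root and leaf libraries shared trees, and the tests of roots against leaves treat their libraries as independent. Total counts ran from 1118899 (ML2x WD 4) to 27925992 in roots and from 3747153 (PL2x Ctrl 1) to 54838385 in leaves.

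Roots take up water and mineral ions, pass them through a suberised endodermis to the xylem and meet the microbes of the soil. Transcripts that are abundant in plant roots commonly encode water channels, ion transporters, enzymes of the cell wall and of lignin, and small defence proteins. When soil dries, roots make and receive abscisic acid, change their water conductance and slow the growth of part of the root system, and many growth and transport transcripts are known to decline. The files give the genes by identifier alone, in the style of the clementine annotation. None of the 96 matched the sweet orange (Citrus sinensis, DVS_A1.0) gene table (0 of 24533 identifiers did), so their products, their positions and the marker genes of either tissue were not analysed here.

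The levels of the 96 in irrigated roots spanned a wide range above the limit. Ciclev10029803m.g had the highest root mean of all 24533 genes in irrigated trees. Its lowest, median and highest values were 3101, 4993 and 7989 CPM in WD roots and 7095, 9994 and 16844 CPM in Ctrl roots. It was the most abundant transcript in 2 of 15 WD and 10 of 12 Ctrl root libraries. The second among the 96 was Ciclev10022212m.g, with 1836, 3163 and 4258 CPM in WD roots and 2982, 3936 and 4985 CPM in Ctrl roots. WD and Ctrl roots overlapped for both, for the first only through PL2x WD 3. In all, 22 of the 96 had a mean of at least 1000 CPM in WD roots and 20 in Ctrl roots, and their median mean level was 435 CPM in WD roots and 639.6 CPM in Ctrl roots.

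At the limits of the choice the values ran on without a gap. The last gene inside the root limit, Ciclev10018844m.g, had a Ctrl root mean of 409 CPM, and the first outside it, Ciclev10029453m.g, had 398 CPM. The last inside the leaf limit, Ciclev10012049m.g, stood at 877 CPM in Ctrl roots and 219 CPM in Ctrl leaves, a ratio of 4.00132, and the first outside, Ciclev10018596m.g, at 1076 and 271 CPM, a ratio of 3.97.

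In Ctrl leaves the 96 ranged from near absence to high expression. Of them 12 had a Ctrl leaf mean under 1 CPM, 13 from 1 to 10 CPM, 44 from 10 to 100 CPM and 27 at 100 CPM or more. The 12 that leaves nearly lacked had means between 48.1 and 799.7 CPM in WD roots and between 462 and 1458 CPM in Ctrl roots, while no leaf library of either treatment exceeded 2.51 CPM for any of them. Their Ctrl root means were 918 to 2706 times the leaf means. At the other end, the most abundant of all, Ciclev10029803m.g, was also well expressed in leaves, with a mean of 1060.0 CPM in WD leaves and 1598 CPM in Ctrl leaves.

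**Figure D1:**
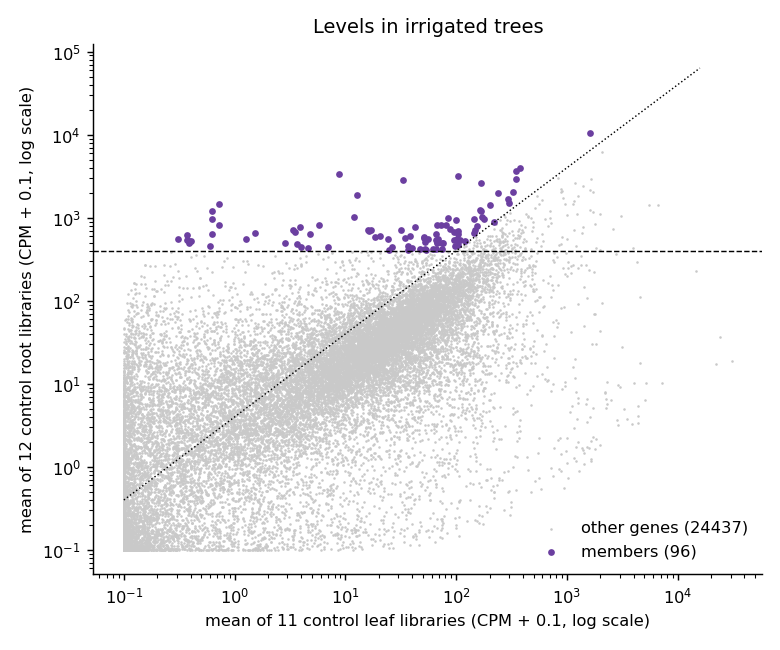
Mean level of each gene in the 12 Ctrl root libraries (vertical axis, CPM plus 0.1, log scale) against its mean in the 11 Ctrl leaf libraries (horizontal axis, same scale), with the 96 chosen genes in purple and the other genes in grey. The dashed line marks 400 CPM and the dotted line a root level of 4 times the leaf level, and the chosen genes fill the corner above both and spread over leaf levels from under 1 CPM to well above 100 CPM.

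The 96 differed widely in how steady they were between irrigated trees. The coefficient of variation (CV, the SD as a percent of the mean) over the 12 Ctrl root libraries had a median of 32.3%, against 21.1% for the 178 abundant genes that were not root-biased. It was lowest, at 13.6%, for Ciclev10001888m.g (1149 ± 233 CPM in 15 WD roots and 814 ± 111 CPM in 12 Ctrl roots as mean ± SD) and for Ciclev10022212m.g. The highest was 165% for Ciclev10022300m.g, followed by 148% for Ciclev10029467m.g. Ciclev10022300m.g had 89.4, 167 and 869.8 CPM in PL4x, 152, 347 and 454 CPM in PL2x, 3859, 480.1 and 974 CPM in ML4x and 54.4, 142 and 116 CPM in ML2x Ctrl roots. ML4x Ctrl 1 stood far above the other 11, so that the mean was 642 CPM and the median 257 CPM. Of the 96, 6 had a CV over 100%, and for 5 of these 6 ML4x Ctrl 1 was the highest Ctrl root library, with the highest value of the other one in ML4x Ctrl 3. ML4x Ctrl 1 and ML2x Ctrl 1 were each the highest Ctrl root library for 18 of the 96, PL4x Ctrl 2 for 15 and PL2x Ctrl 1 for 13, while PL4x Ctrl 3 was the highest for 0. A median over Ctrl roots under 400 CPM was found for 13 of the 96, and 35 stayed at or above 400 CPM in all 12 Ctrl root libraries.

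Together the 96 took a smaller share of the root RNA in every WD group than in its Ctrl group. The genes were chosen for high Ctrl root and low Ctrl leaf levels. A smaller WD share in roots and a larger one in leaves can therefore come from the choice, and the shares are a description. Their summed share of a library's counts was 6.94 ± 1.10% in WD roots (SD, n = 15, range 5.42 to 9.23%) and 9.69 ± 0.556% in Ctrl roots (n = 12, range 8.92 to 10.5%). The share was 6.42 ± 1.05% in WD and 9.27 ± 0.474% in Ctrl for PL4x, and 7.90 ± 1.45% and 9.91 ± 0.346% for PL2x. It was 7.34 ± 0.758% in WD and 9.81 ± 0.644% in Ctrl for ML4x, and 6.35 ± 0.781% and 9.77 ± 0.754% for ML2x (SD, n = 3 or 4). A single WD library, PL2x WD 3 at 9.23%, lay within the range of the Ctrl roots, and the other 14 lay below it. The 10 most abundant of the 96 accounted for 2.09 ± 0.466% of the counts in WD roots and 3.72 ± 0.307% in Ctrl roots, and the remaining ones for 4.85 ± 0.666% and 5.97 ± 0.447%. The 178 abundant genes that were not root-biased took 15.0 ± 1.89% in WD roots and 14.1 ± 1.45% in Ctrl roots. In leaves the 96 took 1.63 ± 0.520% of the counts in WD (n = 15) and 0.890 ± 0.121% in Ctrl (n = 11), the opposite order. The leaf shares of PL2x WD 1 (0.778%), ML4x WD 1 (0.993%), PL2x WD 3 (1.06%) and PL4x WD 2 (1.08%) lay within the range of the Ctrl leaves (0.694 to 1.10%).

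**Figure D2:**
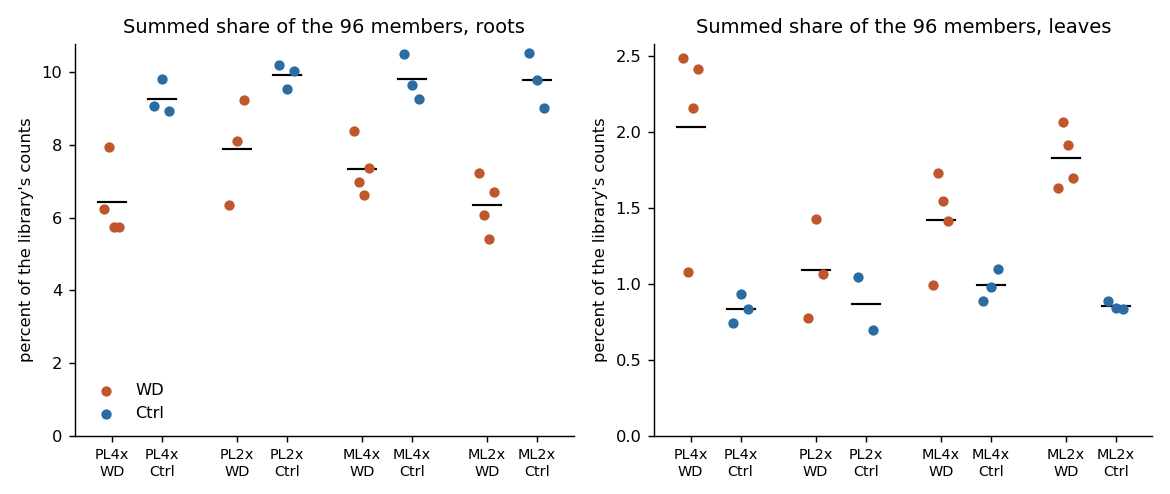
Share of each library's counts taken by the 96 genes together (percent, vertical axis), in roots (left) and leaves (right), by combination, with WD in orange, Ctrl in blue, a point for each library and a line at the group mean. In roots all WD libraries but PL2x WD 3 lie below the lowest Ctrl library at 8.92%, and in leaves most WD libraries lie above the Ctrl range. Both orders are tied to the choice of genes, which used the Ctrl libraries.

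More of the 96 fell than rose in roots under water deficit. Over the mean of the 4 combinations 55 were lower in WD roots, 17 were higher and 24 did not pass the test (edgeR's quasi-likelihood test, called where the Benjamini-Hochberg adjusted p over all 20452 genes tested was under 0.05). Of all genes tested 30.7% were lower and 27.3% higher. The median log2 fold change was -0.55 for the 96 and -0.02 for all genes. Of the 178 abundant genes that were not root-biased 58 were lower (32.6%) and 42 higher (23.6%), with a median of -0.02. In these bulk libraries fewer cells of a type and less RNA per cell cannot be told apart.

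Because the genes were chosen for high levels in the same Ctrl roots, a lower WD level can come from the choice alone. The choice was therefore repeated on the controls of one scion and the response read in the trees of the other, which the choice did not use. The 102 genes chosen on Mexican lime controls (84 of them among the 96) had 31 lower (30.4%) and 12 higher in roots under Persian lime, where 15.9% of all genes were lower and 15.2% higher, with a median of -0.47. The 103 chosen on Persian lime controls (86 among the 96) had 42 lower (40.8%) and 10 higher in roots under Mexican lime, where 24.9% of all genes were lower and 20.4% higher, with a median of -0.38. In both cases more genes were lower than higher in trees the choice had not used. Both choices still took genes for a high level in irrigated roots, which favours genes that stand higher there under either scion. The response of genes chosen on WD libraries was not read.

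**Figure D3:**
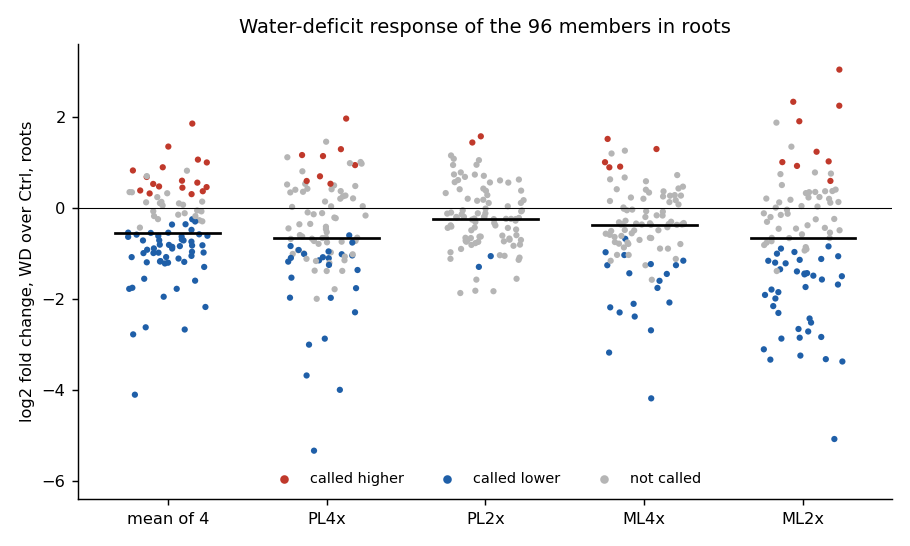
Log2 fold change of each of the 96 genes in roots, WD over Ctrl (vertical axis), for the mean of the 4 combinations and for each one, with a point for each gene, a black line at the median, red for called higher, blue for called lower and grey for not called. The medians lie at -0.55 for the mean, -0.65 in PL4x, -0.24 in PL2x, -0.37 in ML4x and -0.66 in ML2x.

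The most abundant genes were picked by the Ctrl root mean, so a lower WD level among them is tied to that choice and given as a description. Of the 10 most abundant 9 were lower in WD roots, 0 higher and 1 not called. Among all genes tested in roots 30.7% were lower and 27.3% higher. Ciclev10029803m.g stood at 5095 ± 1550.3 CPM in WD roots and 10587 ± 2864 CPM in Ctrl roots (SD, n = 15 and 12), with log2 -0.97 ± 0.16 (SE, adjusted p = 3.64e-05). The overlap lay between PL2x WD 3, at 7989 CPM, and the lower Ctrl values, 7095 CPM in PL4x Ctrl 2 and 7967 CPM in ML4x Ctrl 3. By abundance, 29 of the more abundant 48 and 26 of the less abundant 48 were lower, and 10 and 7 were higher.

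The gene lowered in the most combinations was Ciclev10011785m.g, which fell in all 4. It had 378, 431, 249.5 and 249 CPM in PL4x WD roots, against 1247, 874 and 927 CPM in PL4x Ctrl roots. In PL2x it had 329, 551 and 771 CPM in WD and 1468, 1679 and 1264 CPM in Ctrl roots. Within each of these combinations WD and Ctrl roots did not overlap. In ML4x it had 502, 386, 324 and 280.0 CPM in WD and 771, 1076 and 809.9 CPM in Ctrl roots, and in ML2x 382, 255, 293 and 290.5 CPM in WD and 1814, 1409.7 and 1519 CPM in Ctrl roots. These groups did not overlap either, and over all combinations only the PL2x WD 3 and ML4x Ctrl 1 values met, both at 771 CPM. Over the 4 combinations the log2 fold change was -1.60 ± 0.13 (SE, adjusted p = 4.74e-09), with -1.54 ± 0.24 in PL4x, -1.30 ± 0.27 in PL2x, -1.26 ± 0.24 in ML4x and -2.31 ± 0.25 in ML2x. The PL2x call was lost without PL2x Ctrl 2 (adjusted p = 0.06) or PL2x WD 1 (adjusted p = 0.072). The Ctrl root level of this gene chose it, so its fall is tied to the choice and is a description.

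The deepest fall was that of Ciclev10010217m.g, called in 3 combinations. It had 1.44, 23.5, 12.6 and 5.34 CPM in PL4x WD roots, against 378, 91.2 and 953 CPM in PL4x Ctrl roots. In ML4x it had 36.8, 13.3, 2.43 and 16.1 CPM in WD and 118, 394 and 416 CPM in Ctrl roots, and in ML2x 35.7, 20.6, 7.34 and 70.6 CPM in WD and 1359, 1809 and 170.2 CPM in Ctrl roots. WD and Ctrl roots did not overlap within these 3 combinations. In PL2x it had 27.2, 106 and 343 CPM in WD and 348, 843 and 662 CPM in Ctrl roots, where PL2x WD 3 almost reached the lowest control, and did not pass the test (log2 -1.82 ± 1.06, adjusted p = 0.316). Over the 4 combinations the log2 fold change was -4.11 ± 0.54 (SE, adjusted p = 2.74e-06). Leaves never exceeded 0.499 CPM in WD or 0.87 CPM in Ctrl for this gene. Its Ctrl root level chose it, so the fall, its test and the absence of overlap are tied to the choice and are a description.

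A minority rose. Ciclev10004372m.g rose in all 4 combinations, with lowest, median and highest values of 991, 1671 and 2117 CPM in WD roots and 388, 628 and 1011 CPM in Ctrl roots, and log2 1.35 ± 0.15 over the 4 (SE, adjusted p = 2.54e-07). WD and Ctrl roots overlapped in 1 pair of values, ML2x WD 4 at 991 CPM and ML4x Ctrl 2 at 1011 CPM. Its PL2x call was lost without PL2x Ctrl 2 (adjusted p = 0.065). Ciclev10021060m.g rose in 3 combinations, with 1155, 1971 and 2515 CPM in WD roots and 683, 965 and 1438 CPM in Ctrl roots (log2 1.06 ± 0.17, adjusted p = 1.9e-05), and its WD and Ctrl roots overlapped through PL4x WD 2 and PL2x WD 2. Its PL2x value of 1.08 ± 0.35 did not pass by edgeR (adjusted p = 0.0829) and did by DESeq2 (0.99, adjusted p = 0.042). The mean response of both genes kept its call in all alternatives run, whereas the calls of Ciclev10021060m.g in single combinations were near the threshold: that in PL4x was lost without PL4x Ctrl 1 or 3 or WD 3 or 4, that in ML4x without any ML4x library but WD 1, and that in ML2x without ML2x Ctrl 3.

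For 2 of the 96 every WD root library lay below every Ctrl root library, where 1.39% of the 23342 genes with a root count did so, and for 0 of the 96 every one lay above (1.04% of genes). These 2, chosen after their values were seen, were Ciclev10021867m.g, with 74.6 to 830.6 CPM in WD roots and 902 to 1917 CPM in Ctrl roots, and Ciclev10000363m.g, with 10.7 to 229 CPM in WD roots and 319 to 835 CPM in Ctrl roots. The Ctrl values also chose the genes, so both counts are a description.

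**Figure D4:**
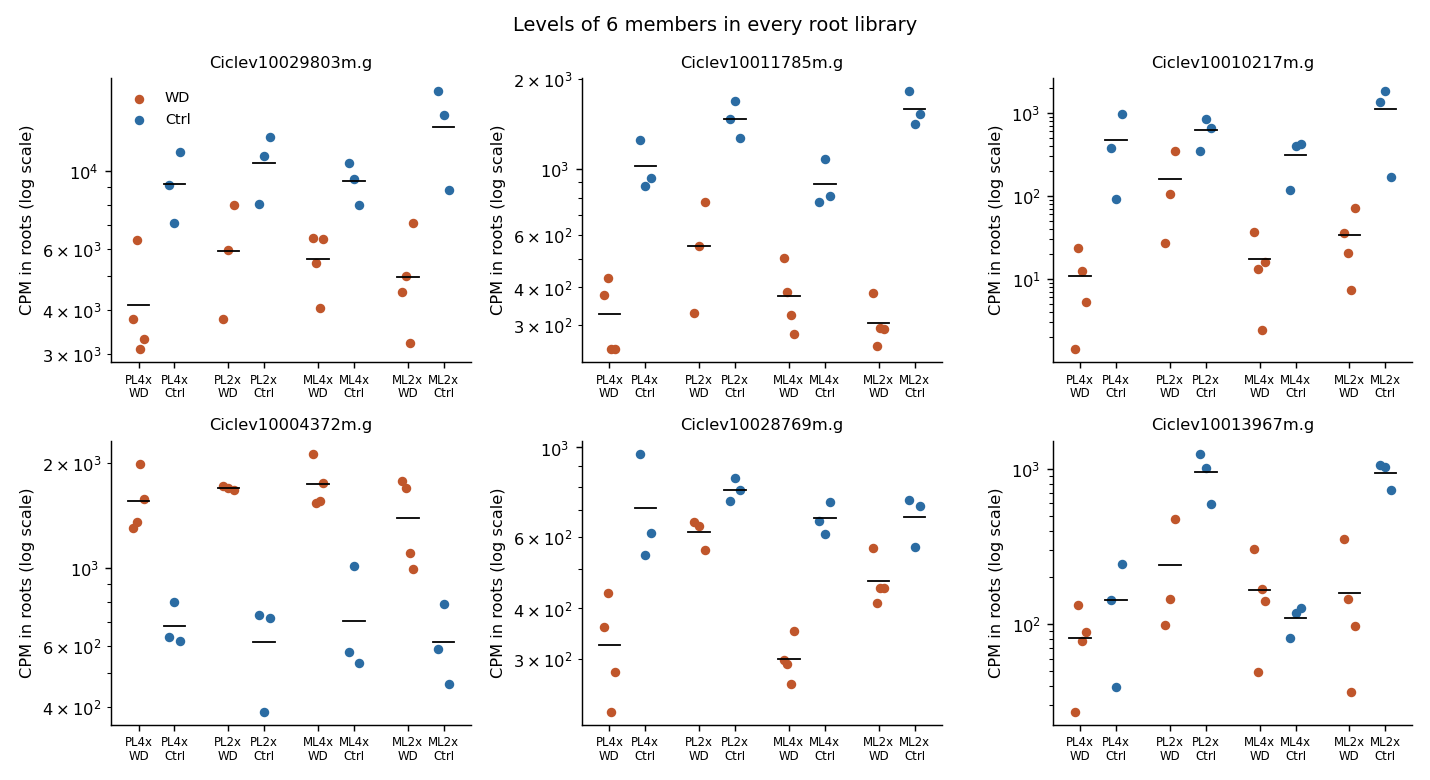
Level of 6 of the 96 genes in each root library (vertical axis, CPM, log scale) by combination, with WD in orange, Ctrl in blue, a point for each library and a line at the group mean. Ciclev10029803m.g, Ciclev10011785m.g and Ciclev10010217m.g were lower and Ciclev10004372m.g higher in WD roots, and Ciclev10028769m.g was lower on the tetraploid rootstock in WD roots. The choice of genes used the Ctrl values, so the lower WD levels and the Ctrl values of Ciclev10013967m.g are a description.

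The number called differed between combinations, and with it the number called among all genes. In PL4x 25 of the 96 were lower and 8 higher, where 9.64% of all genes were lower and 8.9% higher. In PL2x 2 were lower and 2 higher (1.45% and 2.31% of all genes). In ML4x 19 were lower and 5 higher (7.97% and 6.38%), and in ML2x 39 were lower and 9 higher (22.9% and 16.5%). The medians were -0.65, -0.24, -0.37 and -0.66 in that order. A gene of the 96 was called lower in 4 combinations in 1 case (0.846% of all genes), in 3 in 12 (3.91%), in 2 in 10 (5.46%), in 1 in 25 (15.9%) and in none in 48 (73.9%). By sign alone, 49 of the 96 were below 0 in all 4 combinations and 13 in none, where 32.4% of all genes were below 0 in all 4 and 30.1% in none. Both counts use the Ctrl roots that chose the genes. Single libraries moved these counts: PL4x had 43 lower without WD 2, and 2, 4, 5 or 4 higher without Ctrl 1, Ctrl 3, WD 3 or WD 4. ML4x had 12 lower without Ctrl 2, WD 2 or WD 3, and ML2x had 5 higher without Ctrl 3. PL2x had 5 lower without WD 3 and 0 without Ctrl 2 or WD 1, 1 lower without Ctrl 1 or WD 2, 0 higher without Ctrl 2, and 1 higher without Ctrl 1, Ctrl 3, WD 1 or WD 2.

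A few WD libraries held many of the highest values. PL2x WD 3 was the highest WD root library for 24 of the 96, PL2x WD 2 for 16 and ML4x WD 1 for 15. Without PL2x WD 3, 55 of the 96 were lower and 15 higher over the mean of the 4 combinations.

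Few of the 96 differed past the test between rootstocks under water deficit. In WD roots, which the choice did not use, 1 of the 96 was lower and 0 higher on the tetraploid rootstock (mean of both scions), where 0.122% of all genes were lower and 0.235% higher. Ciclev10028769m.g had 361, 438, 222 and 278 CPM in PL4x against 655, 641 and 558 CPM in PL2x WD roots. It had 298, 291, 259.6 and 352 CPM in ML4x against 565, 412, 449 and 449.5 CPM in ML2x WD roots. All tetraploid values lay below the diploid ones under each scion. The log2 difference was -0.79 ± 0.13 in WD roots (SE, adjusted p = 0.0151) and -0.05 ± 0.14 in Ctrl roots (adjusted p = 0.912). The WD call was lost without PL2x WD 1 (adjusted p = 0.056) or PL2x WD 2 (adjusted p = 0.069), and DESeq2 called 7 of the 96 lower and 2 higher (0.951% and 1.05% of all genes with a root count). The count of higher genes became 2 without ML2x WD 4 and 1 without ML4x WD 2 or PL4x WD 3, and that of lower genes 2 without ML4x WD 2.

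In irrigated roots the rootstock contrast drew on the Ctrl libraries that chose the genes, so nothing is read from its count: 12 of the 96 were lower and 1 higher on the tetraploid rootstock, where 2.28% of all genes were lower and 0.763% higher. With genes chosen on the other scion's controls, the contrast had 0 of 102 lower and 0 higher under Persian lime (0 and 1 of all genes), and 5 of 103 lower and 1 higher under Mexican lime (1.74% and 0.406% of all genes). Whether the scions differed in this was not tested.

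Ciclev10013967m.g and Ciclev10030920m.g, the 2 lower genes named for this contrast, reached 400 CPM through the diploid Ctrl roots alone, so their Ctrl values are a description. Ciclev10013967m.g had 143, 39.5 and 244 CPM in PL4x and 1248, 1011 and 596 CPM in PL2x Ctrl roots, and 80.8, 119 and 127 CPM in ML4x and 1067, 1023 and 729 CPM in ML2x Ctrl roots. Ciclev10030920m.g had 148, 273 and 252 CPM in PL4x and 299, 996 and 615 CPM in PL2x Ctrl roots, and 44, 142 and 188 CPM in ML4x and 1888, 1131 and 586 CPM in ML2x Ctrl roots. In WD roots, which the choice did not use, neither passed the test, with a log2 difference of -0.76 ± 0.46 for Ciclev10013967m.g (SE, adjusted p = 0.524) and -1.15 ± 0.39 for Ciclev10030920m.g (adjusted p = 0.195).

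The gene called higher on the tetraploid was Ciclev10022300m.g (log2 2.21 ± 0.61, adjusted p = 0.0483, tied to the choice). Its highest Ctrl root value was in ML4x Ctrl 1, which was the highest Ctrl root library for 18 of the 96. Without that library the difference was 1.54 (adjusted p = 0.18), and without PL4x Ctrl 3 it was 1.49 (adjusted p = 0.18). The call was lost in 14 of the alternatives run, and DESeq2 called 9 of the 96 higher (1.73% of all genes). The number higher was 0 without ML2x Ctrl 1, 2 or 3, PL2x Ctrl 2 or 3 or PL4x Ctrl 2, 2 without ML4x Ctrl 3, PL2x Ctrl 1 or PL4x Ctrl 3, and 4 without PL4x Ctrl 1, while 8 to 12 were lower.

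By edgeR no gene passed the tests of whether the rootstock alters the response, or of the scion in WD roots. The difference of the WD response between tetraploid and diploid rootstocks was called for 0 of the 96 and 0 of all genes (0.0%) under either scion by edgeR. At an unadjusted p under 0.05 there were 14 of the 96 and 653 of all 20452 genes under Persian lime, and 26 and 2915 under Mexican lime. DESeq2 called 0 of the 96 and 1 of all genes under Persian lime, and 3 of the 96 higher and 0 lower under Mexican lime (0.883% and 0.27% of all genes). Between Persian and Mexican lime scions, WD roots differed in 0 of the 96 and 0 of all genes (0.0%) by edgeR, with 8 of the 96 and 1218 of all genes at an unadjusted p under 0.05, and DESeq2 called 1 of the 96 lower and 0 higher, with 8 of all genes lower and 5 higher. The median difference of response over the 96 was -0.34 under Persian lime and 0.13 under Mexican lime (tetraploid minus diploid, log2), and the median of Persian over Mexican lime was 0.19. A test that misses the threshold does not show that the groups were alike.

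Under water deficit most of the 96 were higher in roots than in leaves. In WD libraries, which the choice did not use, 92 of the 96 were higher in roots than in leaves, 1 was lower and 3 were not called, where 42.4% of all genes were higher and 32.6% lower. The median log2 difference was 2.20 for the 96 and 0.15 for all genes. For 58 of the 96 every WD root library lay above every WD leaf library, where 10.6% of the 23443 genes with a count in them did so. The gap was largest for Ciclev10005603m.g, at 280.1, 423 and 532 CPM in WD roots (lowest, median and highest) and at most 1.25 CPM in WD leaves (log2 10.06 ± 0.29, SE, adjusted p = 2.35e-20). Ciclev10023958m.g had 166, 226 and 538 CPM in WD roots and at most 0.767 CPM in WD leaves (log2 9.94 ± 0.35, adjusted p = 7.35e-19). The single reversal was Ciclev10029428m.g, with 145, 307 and 487 CPM in WD roots and 78.7, 522 and 1078 CPM in WD leaves (log2 -0.94 ± 0.25, adjusted p = 0.00154). Its roots and leaves overlapped, and in Ctrl trees it had 233, 332 and 2169.8 CPM in roots and 63.9, 94 and 143 CPM in leaves. Its highest Ctrl root value was that of ML4x Ctrl 1, and the next was 748 CPM. Its Ctrl root mean of 542 CPM thus leaned on that library, and its median lay under the limit of 400 CPM. The fits that left out a library kept the same 96, so whether this gene would then have been chosen was not tested. A second gene was called lower when ML2x WD 4, PL2x WD 3 or PL4x WD 2 of roots, or PL2x WD 1 or PL2x WD 3 of leaves, was left out.

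By the limits of the choice itself, read in WD libraries, 35 of the 96 kept both. A mean of at least 400 CPM in WD roots was kept by 55 and a ratio of at least 4 to WD leaves by 58. In all 62 genes met both limits in WD libraries, 27 of them not among the 96. The ratio of root to leaf means had a median of 4.92 in WD and 11.1 in Ctrl trees. The Ctrl ratios were chosen to be at least 4, so a smaller WD ratio can come from the choice, and no change is read from these medians. The root-to-leaf ratio depends on the scaling between tissues. With TMM factors over both tissues, which averaged 1.17 in WD roots, 1.17 in Ctrl roots, 0.915 in WD leaves and 0.77 in Ctrl leaves, 66 genes would have been chosen and 16 of the 96 kept both limits in WD libraries.

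The ratio in WD trees was also read by leaf level. All 12 genes under 1 CPM in Ctrl leaves kept the ratio of 4 in WD trees, as did all 13 from 1 to 10 CPM, 22 of 44 from 10 to 100 CPM and 11 of 27 at 100 CPM or more. In WD roots 9 of the 12, 8 of the 13, 24 of the 44 and 14 of the 27 were lower, with medians of -1.09, -0.83, -0.40 and -0.27, and 0, 2, 9 and 6 were higher. In WD leaves 0, 4, 22 and 12 were higher and 0, 8, 9 and 5 lower. Of all genes tested, 30.7% were lower and 27.3% higher in WD roots, and 27.8% were higher and 20.3% lower in WD leaves. The counts and medians by leaf level share the Ctrl leaf level that set the classes, and are a description. Genes outside the choice were not read by leaf level, so no trend is read from the medians.

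In leaves the 96 moved both ways, more often up. Over the mean of the 4 combinations 38 were higher in WD leaves, 22 lower and 36 not called, where 27.8% of all 19140 genes tested were higher and 20.3% lower. The median was 0.17 for the 96 and 0.09 for all genes. Since the genes were chosen for low Ctrl leaf levels, a rise can come from the choice alone. Chosen on the controls of the other scion, 29 of 102 were higher and 14 lower under Persian lime (21.0% and 13.6% of all genes), and 26 of 103 higher and 12 lower under Mexican lime (12.7% and 10.9% of all genes). By combination the median log2 fold change over the 96 was 0.46 in PL4x, 0.01 in PL2x, 0.14 in ML4x and 0.43 in ML2x leaves. Without PL4x WD 2, whose share was nearest to the controls among the PL4x WD leaves, 38 of the 96 were higher and 22 lower.

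The largest rise in leaves was that of Ciclev10022300m.g, the gene most variable in irrigated roots. It had 349, 49.7, 324 and 319 CPM in PL4x WD leaves, against 7.06, 4.28 and 3.44 CPM in PL4x Ctrl leaves. In PL2x it had 1.91, 106 and 43.4 CPM in WD and 22.4 and 1.5 CPM in Ctrl leaves. Only the PL2x groups overlapped, through PL2x WD 1. In ML4x it had 18, 170.1, 129.9 and 56.3 CPM in WD and 2.47, 2.72 and 4.3 CPM in Ctrl leaves, and in ML2x 60.5, 190.0, 94.9 and 121 CPM in WD and 1.2, 0.841 and 1.55 CPM in Ctrl leaves. Over the 4 combinations the log2 fold change in leaves was 4.58 ± 0.58 (SE, adjusted p = 1.41e-05), and in roots it was 0.70 ± 0.40 (adjusted p = 0.138). Ciclev10029467m.g followed, with 8.38, 189.6 and 734 CPM in WD leaves and 2.75, 6.77 and 57.6 CPM in Ctrl leaves (lowest, median and highest; log2 4.12 ± 0.52, adjusted p = 1.3e-05). Its groups overlapped, since PL2x Ctrl 1 and all 3 PL4x Ctrl leaves lay above PL2x WD 1, and PL2x Ctrl 1 also above ML4x WD 1. All 6 genes with a CV over 100% in Ctrl roots were higher in WD leaves, where 27.8% of all genes tested were higher. In WD roots 2 of these 6 were higher and 1 lower (27.3% and 30.7% of all genes), and 3 were not called. For 5 of the 6 the highest Ctrl root value was in ML4x Ctrl 1. Whether their spread in roots and their rise in leaves are linked was not tested. These 6 were singled out after their values were seen.

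The largest falls in leaves were of genes already low there. Ciclev10026351m.g had 0.627, 1.41 and 14.7 CPM in WD leaves and 7.19, 14.4 and 28.8 CPM in Ctrl leaves (lowest, median and highest; log2 -2.20 ± 0.51, SE, adjusted p = 0.00165). The groups overlapped through PL2x WD 1, PL2x WD 3 and PL4x WD 2, while the other 12 WD leaf libraries lay below every control. Ciclev10001994m.g had 0.266, 0.727 and 2.57 CPM in WD leaves and 0.749, 2.13 and 5.8 CPM in Ctrl leaves (log2 -1.92 ± 0.34, adjusted p = 0.000189), and its groups overlapped too. Both fell in roots as well, by a log2 fold change of -1.96 ± 0.45 (adjusted p = 0.000936) and -1.78 ± 0.25 (adjusted p = 4.62e-06). Their Ctrl levels chose them, so these root falls are tied to the choice.

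Calls in roots and leaves were set side by side over the 18179 genes tested in both tissues. Both tissues were lower for 22 of the 96 (9.51% of these genes) and both higher for 14 (13.7%). Roots were lower and leaves higher for 9 (3.69%), and 0 were higher in roots and lower in leaves (2.72%). A further 24 were lower in roots alone (14.0%), 15 higher in leaves alone (11.1%), 3 higher in roots alone (12.9%), 0 lower in leaves alone (7.93%) and 9 called in neither (24.5%). The choice of genes high in Ctrl roots and low in Ctrl leaves favours lower calls in roots and higher calls in leaves, so no pattern is read from these counts. The difference of the response itself, roots minus leaves, was tested over all 53 libraries and 21565 genes. It uses the Ctrl libraries of the choice too. It was below 0 past the threshold for 42 of the 96 and above 0 for 2, where 19.8% of all genes were below and 11.6% above, with medians of -0.75 for the 96 and -0.19 for all genes. Of the 42, 16 were lower in roots and not called in leaves, 12 higher in leaves and not called in roots, 9 lower in roots and higher in leaves, 3 higher in both and 2 lower in both. Both genes above 0 (Ciclev10007368m.g at 0.83 and Ciclev10026655m.g at 0.56) were lower in both tissues, and the number above 0 was 1 in 25 of the fits that left out a library and 3 in 3 of them, the 3 being without ML2x WD 1, PL2x Ctrl 1 or PL4x Ctrl 1 of leaves.

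For Ciclev10022212m.g, the second most abundant of the 96, roots were lower and leaves higher under water deficit over the mean of the 4 combinations. It had 3197 ± 609 CPM in WD and 3981 ± 543 CPM in Ctrl roots (SD, log2 -0.25 ± 0.09, adjusted p = 0.0206), and 1114 ± 581 CPM in WD and 375 ± 105 CPM in Ctrl leaves (log2 1.17 ± 0.23, adjusted p = 0.000412). Its roots were called lower in 0 of the 4 combinations read singly, and its WD and Ctrl roots overlapped. Its high Ctrl root level chose it, so the root fall is tied to the choice. The difference, roots minus leaves, was -1.47 ± 0.24 (SE, adjusted p = 1.32e-05). Ciclev10011785m.g, the gene lowered in roots of all combinations, went the same way, with 87.6, 234 and 756 CPM in WD and 89.3, 162 and 277 CPM in Ctrl leaves (lowest, median and highest; log2 0.62 ± 0.22, adjusted p = 0.0266) and a difference of -2.26 ± 0.27 (adjusted p = 4.82e-08). In WD trees its roots and leaves did not differ past the test (log2 0.20 ± 0.20, adjusted p = 0.382). With genes chosen on the other scion's controls, 18 of 102 were below 0 under Persian lime (17.6%, all genes 10.5%) and 28 of 103 under Mexican lime (27.2%, all genes 11.2%).

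**Figure D5:**
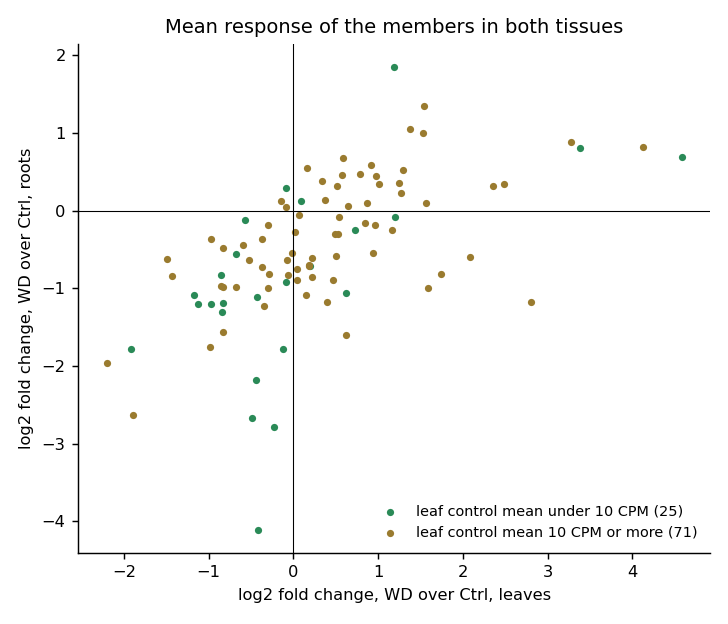
Mean log2 fold change, WD over Ctrl, of each of the 96 genes in roots (vertical axis) against that in leaves (horizontal axis), a point for each gene, in green for the 25 with a Ctrl leaf mean under 10 CPM and in brown for the other 71. Many points lie below 0 in roots and above 0 in leaves, few lie the other way, and the points farthest right, at 4.12 and 4.58 in leaves, lie at 0.82 and 0.70 in roots.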

How the data were processed

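Whole-gene read counts of leaves and roots were deposited by the authors as raw counts, with reads trimmed by Trimmomatic and counted by HTSeq per the submitters' processing notes, from a stranded mRNA kit per the labels' protocols. The sources used here name no aligner, genome build, version or strand setting, so reads shared by near-identical, overlapping or antisense genes are uncertain. Genes were chosen on CPM from column totals. The genes, lists and tests were chosen with earlier results of these data known. Tests used edgeR 4.0.16 in R 4.3.3 (quasi-likelihood, robust, TMM, filterByExpr, Benjamini-Hochberg over all genes tested, threshold 0.05), one model of all groups per tissue (20452 genes in roots, 19140 in leaves), all WD libraries for roots against leaves (20758 genes) and, added after seeing the data, all 53 libraries for the difference of response (21565 genes). The fitting code was tested on simulated data. DESeq2 1.42.0, other size factors, filters, limits and left-out libraries were alternatives. Named genes were the 2 highest in control roots, those at the limits, the 2 lowest and highest by CV, and the 2 highest and lowest called per contrast, under water deficit among those called in the most combinations. Of 64 replicate pairs none agreed within sampling noise (chi-square per gene of at least 16.4). Labels give separate trees within each group, so p-values of tests within 1 tissue measure the spread between these trees. Tests across tissues treat root and leaf libraries that share trees as independent. Every share rests on a library total of at least 1118899 counts. CPM was not corrected for gene length, so the order of abundance among genes is one of counts, not of molecules.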

Additional observations from a re-analysis of the deposited data

Results flagged for a closer look

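Among 120 sets of 4 libraries, for the 19 named genes and the summed share of the 96 in 6 groups, 9 held a library far from the other 3, where chance gives about 1 in 20. The leaf library PL4x WD 2 accounted for 5 of the 9. It had 406 CPM of Ciclev10022212m.g, against 1700 to 1880 CPM in the other PL4x WD leaves, 49.7 CPM of Ciclev10022300m.g (319 to 349 CPM in the others) and 220 CPM of Ciclev10004372m.g (771 to 836 CPM). It also had 184 CPM of Ciclev10012049m.g (397 to 432 CPM) and 13.3 CPM of Ciclev10026351m.g (0.661 to 1.41 CPM). In each of these 5 it lay on the side of the Ctrl leaves. The leaf library ML4x WD 1 had 202 CPM of Ciclev10004372m.g, where the other ML4x WD leaves had 578 to 630 CPM, and ML2x WD 1 had 5.33 CPM of Ciclev10026351m.g, where the others had 0.627 to 1.36 CPM. In roots ML4x WD 1 had 438 CPM of Ciclev10018844m.g (213 to 233 CPM in the other ML4x WD roots), and ML4x WD 4 had 487 CPM of Ciclev10029428m.g (324 to 349 CPM).

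The response to water deficit differed between roots and leaves for 7 of the 19 named genes by edgeR's test of the difference itself (roots minus leaves, log2, adjusted over 21565 genes), where 19.8% of all genes were below 0 and 11.6% above. The named genes were taken partly for extreme values in Ctrl roots, in leaves and between tissues, so this count is no share of the 96. The difference was -3.95 for Ciclev10010217m.g (adjusted p = 0.00891), which leaves barely expressed, -3.93 for Ciclev10022300m.g (adjusted p = 1.76e-05) and -3.35 for Ciclev10029467m.g (adjusted p = 2.63e-05). It was -2.73 for Ciclev10029428m.g (adjusted p = 8.23e-07), -2.26 for Ciclev10011785m.g (adjusted p = 4.82e-08), -1.47 for Ciclev10022212m.g (adjusted p = 1.32e-05) and -0.95 for Ciclev10028769m.g (adjusted p = 0.000352). All 7 were below 0, and what underlies them was not tested.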

How the results depend on the processing

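Over all alternatives run, no log2 fold change that was followed for a single gene changed sign. Counts could shift in balance. That for the rootstock in WD roots, 1 lower and 0 higher as reported, became 2 higher without ML2x WD 4. It became 0 lower without PL2x WD 1 or PL2x WD 2. With 55 of the 96 lower and 17 higher in WD roots as reported, leaving out a library gave 46 to 56 lower and 13 to 17 higher. The counts scaled with the choice of genes: 85 lower and 30 higher of 154 at 300 CPM, 32 and 10 of 52 at 600 CPM, 9 higher of 64 at 8 times the leaf mean, and 11 higher of 66 with TMM over both tissues. Chosen on the other scion, 31 lower under Persian lime and 10 higher under Mexican lime were counted in roots, 14 and 12 lower in leaves, 18 below 0 under Persian lime and 1 above 0 under Mexican lime for the difference of response, and 0 higher and 0 lower (Persian), 5 lower (Mexican) for the rootstock in Ctrl roots. WD roots above WD leaves numbered 148 and 49 at 300 and 600 CPM, with 0 lower at 600 CPM, at 8 times and with TMM-chosen genes. Both limits were kept in WD trees by 16 genes with TMM over both tissues, against 35. The root share was 4.85% in WD and 5.97% in Ctrl without the 10 most abundant genes, 9.00% and 11.68% at 300 CPM, and 5.19% and 7.51% at 600 CPM.

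The single gene higher on the tetraploid in Ctrl roots became 0 with RLE factors, with no filter, with factors from the other genes and with the block, and 9 by DESeq2. DESeq2 also gave 7 lower in PL2x, 2 higher and 7 lower for the rootstock in WD roots, 3 higher for the difference under Mexican lime and 1 lower for the scion. Factors from the other genes gave 1 higher for the rootstock in WD roots, and no filter gave 1 above 0 for the difference between tissues. The cause of these shifts was not tested.

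Leaving out one library at a time gave, lower and higher, 17 to 43 and 2 to 9 in PL4x, 0 to 5 and 0 to 2 in PL2x, 12 to 22 and 4 to 6 in ML4x, and 28 to 43 and 5 to 9 in ML2x. It gave 0 to 2 and 0 to 2 for the rootstock in WD roots, 8 to 12 and 0 to 4 in Ctrl roots, 1 to 2 lower in WD roots against WD leaves, 20 to 24 and 33 to 38 in leaves, and 31 to 45 below and 1 to 3 above 0 for the difference between tissues. Of the values for single genes under alternatives, 583 kept their direction and their side of the threshold, 32 lost their call and 1 gained it.

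Whether replicate numbers shared across groups mark paired libraries was not settled. Deviations of same-numbered WD and Ctrl roots correlated at -0.399 to 0.352, over 0.1 in 5 of 12 pairs. Of 12 WD libraries, 6 correlated best with their own number. Between same-numbered roots and leaves the correlation was -0.313 to 0.453, over 0.1 in 10 of 21. Roots and leaves of unlike number were not compared, so these values cannot show whether a number marks the same tree. With the replicate number as a block, 49 were lower and 13 higher in WD roots, PL2x had 1 lower and 1 higher, and PL4x 4 higher. The rootstock in Ctrl roots had 0 higher, and Ciclev10021060m.g lost its calls in PL4x (adjusted p = 0.055) and ML4x (adjusted p = 0.088). For WD roots against WD leaves another model was fitted, without the PL2x libraries. It had a term for each combination and replicate number, taken as a tree, and gave 2 lower.

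The shallowest root library was ML2x WD 4, where a given CPM rests on the fewest counts. Without it, 55 of the 96 were lower and 15 higher in WD roots.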
